A study of Homo sapiens with 12 samples.

Results

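The 34 genes described here are those of sterol and fatty acid synthesis and of the machinery that switches them on. They were found by symbol among the 58051 genes of the count tables, by a rule that names them by pathway. The genes were chosen with earlier results of these data known. They comprise 5 genes of the sterol regulatory element-binding proteins (SREBPs) and their regulators, 7 genes of the steps to farnesyl diphosphate, 11 genes from squalene synthesis to cholesterol, 8 genes of fatty acid synthesis and desaturation, and 3 genes of sterol transport and glycerolipid synthesis. All 34 were measured, and passed the filter on low counts, in each of the 3 cell lines. RNA-seq had been done in 3 established human renal carcinoma lines: 786-O and A-498 were given either a control mimic or a miR-29 mimic (an artificial duplex that acts as extra miR-29), and ACHN either a control inhibitor or a miR-29 inhibitor, which blocks the microRNA. There was 1 library per group in 786-O, 2 per group in A-498 (control mimic replicates 1 and 3, miR-29 mimic replicates 1 and 2) and 3 per group in ACHN. Every culture received 10 nM of its oligonucleotide, and RNA was taken 48 h after transfection. Mimic and inhibitor were never given to the same line, so line and kind of oligonucleotide cannot be told apart between experiments. The study's methods call the A-498 and ACHN libraries of a group biological replicates.

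SREBPs are transcription factors made as membrane proteins of the endoplasmic reticulum. When sterols are low, SCAP carries them to the Golgi, where they are cut and released to the nucleus, and they then raise the transcription of most genes of cholesterol and fatty acid synthesis; when sterols are high, INSIG proteins hold SCAP and its SREBP in the endoplasmic reticulum. INSIG1 is itself an SREBP target and a reported target of miR-29, a family of 3 microRNAs best known for lowering collagen and other matrix mRNAs. A microRNA lowers an mRNA mainly through pairing of its seed, bases 2 to 8, with the 3′ UTR.

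The sequences of the family come first, because all 3 members share the seed on which the search for sites below was based. The seed is in capitals in the mature sequences, which are those of RefSeq (GRCh38.p14).
miR-29a-3p: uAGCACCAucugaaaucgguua
miR-29b-3p: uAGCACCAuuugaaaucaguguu
miR-29c-3p: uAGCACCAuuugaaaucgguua

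Of the 34 genes, 8 (23.5%) held at least 1 match of 7 bases to this seed in the 3′ UTR of their canonical transcript, against 16.6% of the 19228 genes with such a 3′ UTR. None held a match of 8 bases, 6 held a match to 6 bases only, and 20 held none. The 9 matches in the 8 genes are given on the mRNA strand of GRCh38 (GENCODE v44), because they mark the genes whose response is set beside that of the others. Capitals mark the bases that match, TGGTGCT (pairing with bases 2 to 8) or GGTGCTA (pairing with bases 2 to 7 and followed by A).
SREBF1 (chr17:17812417-17812441, minus strand): agaccggcggccatgaTGGTGCTga
INSIG1 (chr7:155308645-155308669, plus strand): aaaggaggtaggttgaTGGTGCTta
HMGCS1 (chr5:43289914-43289938, minus strand): tttgtgtagatcttttTGGTGCTga
MVK (chr12:109597688-109597712, plus strand): tatattgcagtcagctTGGTGCTtt
SC5D (chr11:121310830-121310854, plus strand): cagacaccaaaccaacTGGTGCTta
SC5D (chr11:121311241-121311265, plus strand): taataaatccctgataGGTGCTAag
ACACA (chr17:37086080-37086104, minus strand): atttacaactcagtcaTGGTGCTgc
FADS1 (chr11:61801514-61801538, minus strand): tctaaagagaacaagaGGTGCTAgc
LPIN1 (chr2:11825637-11825661, plus strand): cttccatccagcgaggTGGTGCTga
Counted from the base after the stop codon, the matches began at base 197 in SREBF1, 391 in INSIG1, 1209 in HMGCS1 and 1127 in MVK. The 2 matches of SC5D lay at bases 3334 and 3745 of a 3′ UTR of 5898 bases. SCAP, with a 3′ UTR of 173 bases, held only a 6-base match. A match of letters does not show that the site is used.

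The libraries held 39919554 to 70027392 reads in genes, and values are given in CPM (read counts over the library's total, times a fixed factor) scaled with TMM factors within each line. Matrix genes served as a check of the labels: COL1A1, COL4A1, SPARC and LAMC1, with the DNA demethylase gene TET3, fell or had ratios below 0 under the mimic and rose under the inhibitor. The renal epithelial genes PAX8, KRT8 and KRT18 were present in every library, PAX2 ranged from 1.25 CPM in A-498 to 46.2 CPM in 786-O, and the leukocyte and endothelial markers PTPRC, CD3E, PECAM1 and VWF were at or below 0.24 CPM in all of them. PAX8, KRT8 and KRT18 were themselves higher with the mimic in A-498, by 0.82, 0.48 and 0.52 on the log2 scale, and in ACHN their log2 fold changes with the inhibitor were -0.23, -0.24 and -0.27. Their part in the changes below was not tested. In bulk RNA a smaller share of an mRNA cannot be told apart from a larger amount of other RNA.

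With the miR-29 mimic, most of the pathway was lower in A-498. By the quasi-likelihood test of edgeR (Benjamini-Hochberg adjusted p under 0.05 over all genes tested), 26 of the 34 genes fell, 5 rose and 3 did not pass the test, whereas 27.0% of all 19676 genes tested fell and 25.5% rose. The median log2 fold change of the 34 genes was -0.29 against 0.0045 for all genes tested, and it ranged from -2.30 for INSIG1 to 0.54 for TM7SF2. When libraries were scaled by total counts instead, 22 of the 34 fell and 5 rose, with a median of -0.22. That scaling moved the median of all genes by 0.076 and the share of all calls that were higher from 48.6% to 58.7%. In 786-O, where a single library per group allows no test, 25 of the 34 log2 ratios were below 0 (51.0% of all 20370 genes), with a median of -0.21. The ratios of ACAT2, NSDHL, ACACA and INSIG2, below 0, were smaller in size than their standard errors from read counts alone. So were those of EBP and TM7SF2, above 0, and these directions are not settled. In ACHN the genes were divided: 11 fell, 5 rose and 18 did not pass, against 14.4% and 17.3% of all 17904 genes tested, and 3 rose when control inhibitor replicate 1 or 2 was left out. The median log2 fold change in ACHN was -0.019, beside 0.0038 over all genes tested.

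**Figure D1:**
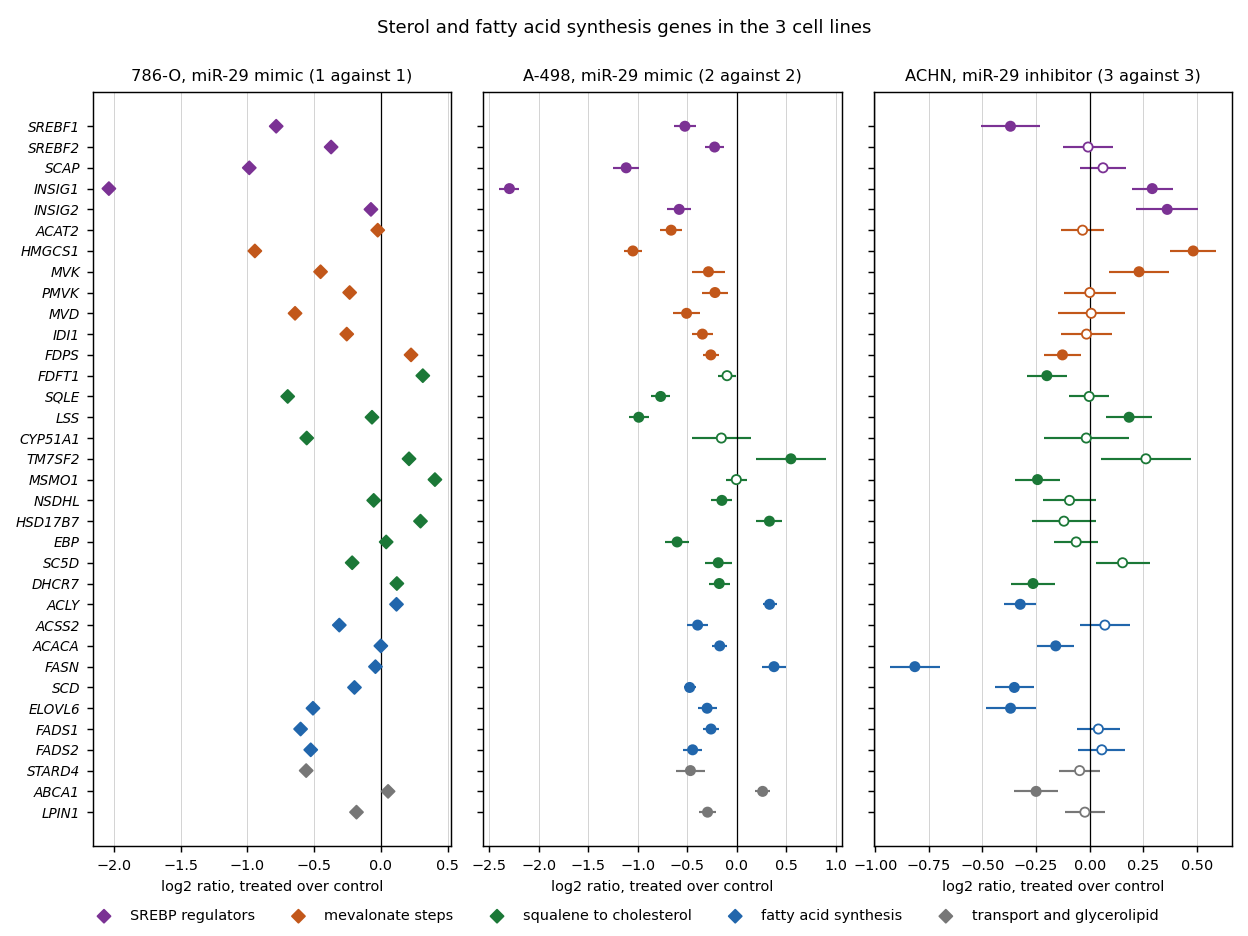
Log2 ratio of treated over control libraries (horizontal axes, which differ in range) for each of the 34 genes (rows, coloured by role) in 786-O, A-498 and ACHN. Diamonds are ratios of single libraries with no test; circles are edgeR log2 fold changes with 95% confidence intervals, filled where the adjusted p was under 0.05. All 5 regulators and all 7 mevalonate genes lie left of 0 in A-498, and 5 of the 8 fatty acid genes are filled and left of 0 in ACHN.

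All 5 regulators fell in A-498, where 27.0% of all genes tested fell. In 786-O all 5 had ratios below 0, as did 51.0% of all genes, though that of INSIG2 was only -0.08. INSIG1, which retains the SCAP-SREBP complex, moved most of all 34 genes. In A-498 it stood at 185 and 198 CPM in the control mimic libraries and at 39.5 and 38.4 CPM with the mimic, a log2 fold change of -2.30 ± 0.047 (SE, n = 2 per group; edgeR adjusted p = 1.13e-13), which left 20.3% of the control level. In 786-O its level was 113 CPM in the control library and 27.4 CPM in the mimic library, a log2 ratio of -2.04. In ACHN it was at 118, 117 and 119.6 CPM with the control inhibitor and at 147, 138 and 149 CPM with the miR-29 inhibitor, a rise of 0.29 ± 0.046 (SE, n = 3 per group; edgeR adjusted p = 7.63e-05). The groups did not overlap in either replicated line.

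SCAP, the escort of the SREBPs, stood at 44.1 and 41.1 CPM with the control mimic in A-498 and at 19.2 and 20.1 CPM with the mimic (log2 fold change -1.12 ± 0.060 SE, edgeR adjusted p = 1.54e-09). In 786-O it was at 73.9 and 37.3 CPM (log2 ratio -0.99). The ACHN libraries overlapped, at 64.6, 65.6 and 66.6 CPM with the control and 63.9, 74.0 and 67.7 CPM with the inhibitor, and the change of 0.06 (95% confidence interval -0.04 to 0.17) did not pass the test (adjusted p = 0.39). Both transcription factor genes were also lower with the mimic. SREBF1, which encodes the SREBP-1 forms that favour fatty acid genes, was at 100.3 and 90.8 CPM in the A-498 controls and 64.6 and 68.1 CPM with the mimic (-0.53 ± 0.053 SE, adjusted p = 1.11e-06 by edgeR), and at 99.0 and 57.4 CPM in 786-O (log2 ratio -0.78).

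In ACHN, SREBF1 went the same way under the inhibitor as under the mimic in the other lines: 37.5, 44.02 and 46.7 CPM with the control and 32.2, 35.2 and 31.8 CPM with the inhibitor, a change of -0.37 ± 0.066 (SE, edgeR adjusted p = 0.000295) with no overlap between groups. SREBF2, whose product SREBP-2 favours the sterol genes, moved less. Its levels in A-498 were 81.4 and 78.9 CPM in controls and 69.8 and 67.2 CPM with the mimic (-0.23 ± 0.045 SE, adjusted p = 0.000711 by edgeR), and in 786-O 251 and 194 CPM (log2 ratio -0.37). In ACHN its libraries overlapped, at 57.9, 57.8 and 66.7 CPM with the control and 58.6, 64.5 and 58.4 CPM with the inhibitor, with a log2 fold change of -0.01 that did not pass the test (edgeR adjusted p = 0.94). INSIG2, the second INSIG gene, was at 34.02 and 35.3 CPM in the A-498 controls and 23.4 and 22.9 CPM with the mimic (-0.58 ± 0.056 SE, edgeR adjusted p = 7.47e-07). It rose with the inhibitor in ACHN, from 15.9, 14.5 and 14.5 CPM to 20.3, 17.7 and 19.7 CPM (0.36 ± 0.068 SE, adjusted p = 0.000461 by edgeR). In 786-O, INSIG2 was at 11.2 and 10.6 CPM, a log2 ratio of -0.08. That ratio is smaller in size than its standard error from read counts alone (0.093), so its direction is not settled.

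**Figure D2:**
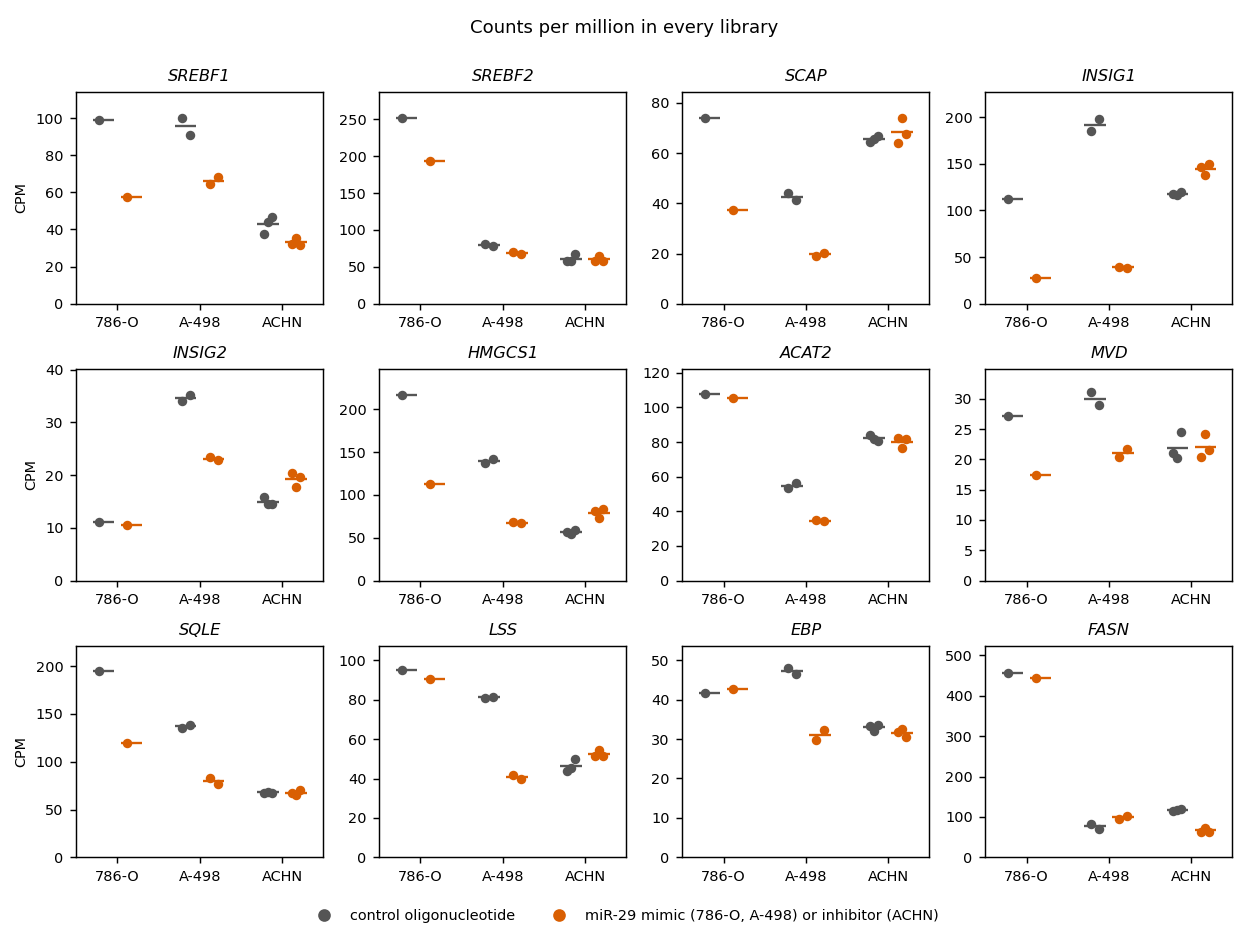
CPM (vertical axes, from 0) of 12 of the genes in every library of 786-O, A-498 and ACHN. Points are libraries and bars group means, with the control oligonucleotide in grey and the miR-29 mimic or inhibitor in orange. INSIG1, SCAP and HMGCS1 lie well below their controls with the mimic in both lines, LSS, ACAT2 and EBP do so in A-498 and lie near their controls in 786-O, and FASN lies below its controls with the inhibitor in ACHN.

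All 7 mevalonate genes fell in A-498, with log2 fold changes from -1.05 to -0.22, where 27.0% of all genes tested fell. HMGCS1, which makes HMG-CoA, had the largest change of these. Its levels were 137 and 142 CPM in the A-498 controls and 67.9 and 67.1 CPM with the mimic (-1.05 ± 0.042 SE, adjusted p = 8.35e-11 by edgeR), and 217 and 113 CPM in 786-O (log2 ratio -0.94). With the inhibitor in ACHN it rose from 57.1, 54.7 and 58.6 CPM to 81.2, 73.6 and 83.2 CPM (0.48 ± 0.051 SE, edgeR adjusted p = 8.32e-07), the largest rise of the 34 genes there, again without overlap. ACAT2, the cytosolic thiolase that makes acetoacetyl-CoA, was at 53.3 and 56.2 CPM in the A-498 controls and 34.9 and 34.2 CPM with the mimic (-0.66 ± 0.051 SE, edgeR adjusted p = 7.65e-08). It was at 108 and 106 CPM in 786-O, and in ACHN the groups overlapped at 84.3, 81.9 and 80.4 CPM against 82.5, 76.6 and 81.9 CPM. MVD, which decarboxylates mevalonate diphosphate, fell from 31.1 and 28.96 CPM to 20.5 and 21.7 CPM in A-498 (-0.51 ± 0.063 SE, adjusted p = 8.99e-06 by edgeR) and was at 27.2 and 17.4 CPM in 786-O. In ACHN, MVD was at 21.0, 20.2 and 24.6 CPM with the control and 20.4, 24.2 and 21.6 CPM with the inhibitor, so that the groups overlapped.

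The kinases MVK and PMVK, the isomerase IDI1 and the farnesyl diphosphate synthase FDPS changed by -0.29, -0.22, -0.35 and -0.26 on the log2 scale in A-498. The calls of MVK and PMVK were lost without miR-29 mimic replicate 1 (-0.22, adjusted p = 0.10, and -0.19, adjusted p = 0.12), and that of PMVK also under scaling by total counts (-0.15, adjusted p = 0.059). In ACHN, MVK rose from 19.4, 19.8 and 21.04 CPM to 22.9, 25.96 and 21.9 CPM, by 0.23 ± 0.066 (SE, edgeR adjusted p = 0.012), a call lost without control inhibitor replicate 1 (0.20, adjusted p = 0.062) or 2 (0.22, adjusted p = 0.058). FDPS fell by 0.13 on the log2 scale in ACHN (adjusted p = 0.024), and that call was lost without any 1 of control inhibitor replicates 1 and 3 and miR-29 inhibitor replicates 1 and 3 (adjusted p from 0.051 to 0.12) and with no filter on low counts (adjusted p = 0.053). In 786-O, FDPS was the only gene of the role above 0 (log2 ratio 0.23), and the direction of ACAT2 was not settled. FDPS and IDI1 have 8 and 3 annotated pseudogene copies whose reads the counting could split from the gene.

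From squalene onward, 6 of 11 genes fell in A-498, 2 rose and 3 did not pass, beside 27.0% and 25.5% of all genes tested. In 786-O 5 of 11 ratios (45.5%) were below 0, near the 51.0% of all genes. The largest fall was that of LSS, which closes squalene epoxide into lanosterol. LSS was at 80.9 and 81.5 CPM in the A-498 controls and 41.8 and 39.8 CPM with the mimic (-0.99 ± 0.047 SE, edgeR adjusted p = 5.34e-10), yet at 94.9 and 90.6 CPM in 786-O (log2 ratio -0.07). In ACHN it was at 43.8, 45.3 and 49.8 CPM with the control and 51.6, 54.7 and 51.5 CPM with the inhibitor, a rise of 0.18 ± 0.050 (SE, edgeR adjusted p = 0.0087) whose call was lost without control inhibitor replicate 1 (0.14, adjusted p = 0.085) or 2 (0.16, adjusted p = 0.063). SQLE, the squalene epoxidase, was below its controls in each mimic experiment: 136 and 138 CPM against 83.4 and 77.0 CPM in A-498 (-0.77 ± 0.046 SE, adjusted p = 4.54e-09 by edgeR), and 195 against 120.0 CPM in 786-O (log2 ratio -0.70). In ACHN, SQLE was at 67.5, 68.5 and 67.7 CPM with the control and 66.8, 65.6 and 70.9 CPM with the inhibitor, a log2 fold change with a 95% confidence interval from -0.10 to 0.09.

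EBP, the sterol isomerase, was at 47.9 and 46.4 CPM in the A-498 controls and 29.7 and 32.4 CPM with the mimic (-0.60 ± 0.056 SE, edgeR adjusted p = 5.37e-07), at 41.6 and 42.7 CPM in 786-O, and between 30.5 and 33.6 CPM in the 6 ACHN libraries. Another gene model on the same strand shares 36.4% of the exon bases of EBP. TM7SF2, a sterol reductase gene and the least abundant of the 34, rose in A-498, at 1.58 and 2.06 CPM against 2.48 and 2.86 CPM (0.54 ± 0.16 SE, edgeR adjusted p = 0.012). That call was lost without control mimic replicate 1 (0.36, adjusted p = 0.071), without miR-29 mimic replicate 2 (0.44, adjusted p = 0.063) and in DESeq2 (adjusted p = 0.097). TM7SF2 was at 0.786 and 0.916 CPM in 786-O and at 5.65, 5.32 and 5.92 against 5.97, 7.66 and 6.67 CPM in ACHN, where it did not pass (0.26, adjusted p = 0.053) but was called higher with no filter (adjusted p = 0.037) and without miR-29 inhibitor replicate 1 (0.020). HSD17B7, a sterol ketone reductase, was the other gene of this role to rise in A-498 (0.33 ± 0.061 SE, adjusted p = 0.0004 by edgeR), and it has 2 annotated pseudogene copies.

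The remaining genes of this role moved less. In A-498, the demethylation gene NSDHL, the desaturase SC5D and the reductase DHCR7 fell by 0.15, 0.19 and 0.18 on the log2 scale, and these calls did not hold under scaling by total counts (adjusted p from 0.095 to 0.22). They were also lost without miR-29 mimic replicate 1 (adjusted p = 0.14, 0.056 and 0.069) or 2 (adjusted p = 0.14, 0.19 and 0.068), and the call of SC5D also without control mimic replicate 3 (adjusted p = 0.063) and in DESeq2 (adjusted p = 0.065). The squalene synthase FDFT1, the methyl oxidase MSMO1 and the demethylase CYP51A1 did not pass in A-498, with log2 fold changes of -0.10, -0.01 and -0.16. Each was called lower under some alternatives. FDFT1 was so with no filter (-0.13, edgeR adjusted p = 0.021) and without control mimic replicate 1 or 3 (-0.11 each). CYP51A1 and MSMO1 were called only in fits that left 1 library in a group. These were CYP51A1 without control mimic replicate 3 (-0.33) or miR-29 mimic replicate 2 (-0.37), and MSMO1 without control mimic replicate 1 (-0.085). Other alternatives put MSMO1 as high as 0.07 and CYP51A1 as high as 0.024. CYP51A1 had between 0.872 and 11.3 CPM in the 12 libraries, and 68.2% of its exon bases are shared with other gene models on the same strand, so its counts are uncertain. With the inhibitor in ACHN, FDFT1, MSMO1 and DHCR7 fell, by 0.20, 0.24 and 0.26 on the log2 scale (edgeR adjusted p from 0.000443 to 0.00188). SC5D did not pass there (0.15, adjusted p = 0.059), but it was called higher with no filter (adjusted p = 0.041), in 1 fit over all 12 libraries (0.022) and without miR-29 inhibitor replicate 2 (0.0026).

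Of the 8 fatty acid genes, 5 fell and none rose with the inhibitor in ACHN, beside 14.4% and 17.3% of all genes tested. With the mimic in A-498, 6 fell and 2 rose, beside 27.0% and 25.5% of all genes tested. FASN, the fatty acid synthase, had the largest change of the 34 genes in ACHN. It stood at 116, 116 and 119.5 CPM with the control inhibitor and 63.4, 73.3 and 63.2 CPM with the miR-29 inhibitor (-0.82 ± 0.055 SE, edgeR adjusted p = 3.04e-09), which left 56.8% of the control level. In A-498 it rose with the mimic, from 81.4 and 71.4 CPM to 95.5 and 102 CPM (0.37 ± 0.058 SE, edgeR adjusted p = 8.46e-05), whereas the 786-O libraries held 457 and 444 CPM (log2 ratio -0.04). ACLY, which supplies cytosolic acetyl-CoA from citrate, moved in the same directions: up by 0.33 ± 0.033 (SE) in A-498 and by -0.32 ± 0.036 (SE) in ACHN (edgeR adjusted p = 9.63e-07 and 1.64e-06).

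SCD, the stearoyl-CoA desaturase, fell in both lines under opposite treatments. It was at 2648 and 2692 CPM in the A-498 controls and 1921 and 1914 CPM with the mimic (-0.48 ± 0.028 SE, edgeR adjusted p = 3.51e-09), at 792 and 690.5 CPM in 786-O, and at 264, 252 and 277 CPM against 205, 205 and 211 CPM in ACHN (-0.35 ± 0.043 SE, edgeR adjusted p = 5.5e-06). The elongase ELOVL6 and the acetyl-CoA carboxylase ACACA shared this pattern, with log2 fold changes of -0.30 and -0.17 in A-498 and -0.37 and -0.16 in ACHN. The desaturases FADS1 and FADS2 and the acetyl-CoA synthetase ACSS2 fell in A-498, by 0.26, 0.45 and 0.40 on the log2 scale. In ACHN these 3 had log2 fold changes from 0.04 to 0.07 and did not pass (edgeR adjusted p from 0.36 to 0.56). Whether the response of any gene differed between A-498 and ACHN was not tested, since the treatments differ too.

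Among the transport and glycerolipid genes, STARD4, a cytosolic sterol carrier, was at 27.3 and 31.0 CPM in the A-498 controls and 21.5 and 20.6 CPM with the mimic (-0.47 ± 0.068 SE, adjusted p = 4.54e-05 by edgeR), and at 73.4 and 49.8 CPM in 786-O. Its ACHN libraries overlapped, at 50.3, 47.3 and 47.6 CPM against 47.3, 44.9 and 48.3 CPM. LPIN1, a phosphatidate phosphatase, fell from 100.3 and 102 CPM to 82.0 and 83.0 CPM in A-498 (-0.30 ± 0.042 SE, adjusted p = 3.14e-05 by edgeR) and was at 89.0 and 78.4 CPM in 786-O. Its ACHN groups overlapped, at 55.9, 55.6 and 53.8 CPM against 55.1, 51.6 and 55.9 CPM. ABCA1, the cholesterol exporter and a target of the liver X receptors rather than of the SREBPs, rose in A-498 and fell in ACHN, with log2 fold changes of 0.26 ± 0.034 and -0.25 ± 0.050 (SE; edgeR adjusted p = 1.81e-05 and 0.000724).

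The opposed treatments were then set side by side, in lines that share no library. Called lower with the mimic in A-498 and higher with the inhibitor in ACHN were 5 of the 34 genes (INSIG1, INSIG2, HMGCS1, MVK and LSS), where 10.5% of the 16708 genes tested in both lines had that pattern. The reverse, higher in A-498 and lower in ACHN, held for ACLY, FASN and ABCA1, where the share of all genes was 7.37%. The same direction in both lines, lower in each case, held for 6 genes (SREBF1, FDPS, DHCR7, ACACA, SCD and ELOVL6). Of all genes, 5.35% were called in the same direction, a share that counts lower and higher together. The calls of FDPS in ACHN and of DHCR7 in A-498 were lost under some alternatives. DESeq2 also gave 8 genes with opposed calls, and an adjusted p under 0.01 in both lines gave 7. Among the opposed calls, those of MVK in both lines and of LSS in ACHN were lost with 1 library left out.

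**Figure D3:**
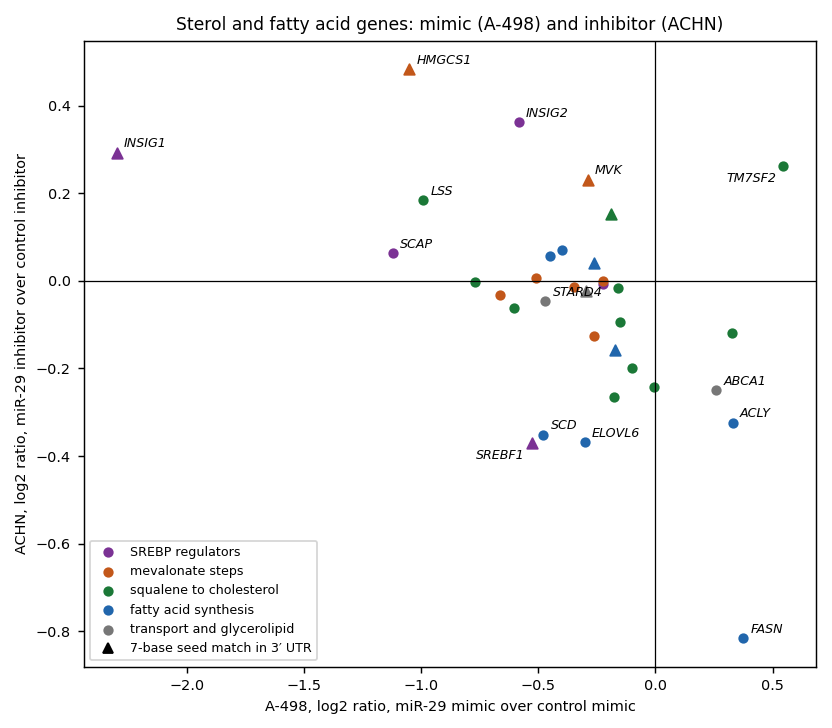
Log2 ratio with the miR-29 mimic in A-498 (horizontal) against that with the miR-29 inhibitor in ACHN (vertical) for the 34 genes, coloured by role. Triangles mark the 8 genes with a 7-base seed match. INSIG1, HMGCS1, INSIG2, MVK and LSS lie in the upper left, FASN, ACLY and ABCA1 in the lower right, and SREBF1, SCD and ELOVL6 in the lower left.

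The 8 genes with a 7-base seed match lay below 0 in both mimic experiments. All 8 fell in A-498, with a median log2 fold change of -0.29, where 54.6% of the 2614 tested genes with such a match fell and their median was -0.25. In 786-O all 8 ratios were below 0, with a median of -0.53, although that of ACACA was -0.0011 and became 0.023 under scaling by total counts. Among all 2568 genes with a match measured in 786-O, 69.0% were below 0. Of the 26 genes without a 7-base match, 6 of which held a 6-base match, 18 fell and 5 rose in A-498, with a median of -0.28. Of the 11141 tested genes without a 7-base match, 28.3% fell and their median was 0.03. In ACHN, 3 of the 8 genes with a match rose (INSIG1, HMGCS1 and MVK), 2 fell (SREBF1 and ACACA) and 3 did not pass; of the 2513 genes with a match, 39.6% rose and 10.3% fell. Of the 26 genes without a 7-base match, 2 rose in ACHN and 9 fell, against 17.2% and 19.7% of all genes without one. In 786-O, 17 of these 26 were below 0, against 47.4% of all genes without a 7-base match. The list was known to include a reported miR-29 target, and these counts carry no test.

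**Figure D4:**
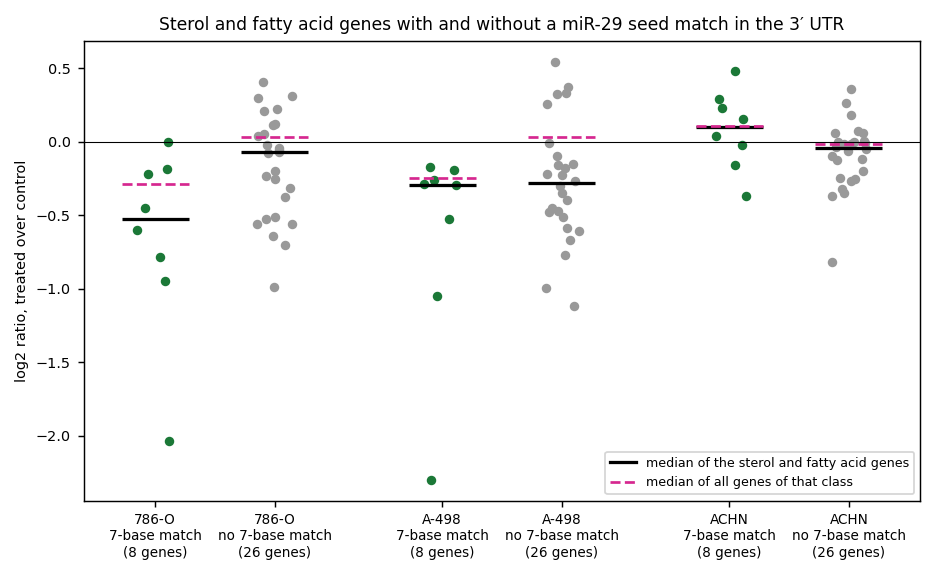
Log2 ratio of treated over control libraries (vertical axis) for the 8 genes with and the 26 genes without a 7-base miR-29 seed match in the 3′ UTR, in 786-O, A-498 and ACHN. Points are genes, black bars their medians, and dashed lines the medians of all genes of that class. In A-498 both classes of these genes have medians near -0.29, while the dashed line of all genes without a 7-base match lies at 0.03.

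The 2 lines given the mimic were set side by side with an interaction term in edgeR. With 1 library per group in 786-O, that fit has to assume that 786-O libraries vary as those of A-498 do, which these data cannot check, so its counts are a description and establish no difference between the lines. Under that assumption the mimic effect was more negative in 786-O for 3 of the 34 genes (13.2% of 22587 genes) and more positive for 11 (16.5%). LSS, ACAT2 and EBP differed most, by 0.97 ± 0.082, 0.69 ± 0.084 and 0.69 ± 0.10 on the log2 scale (SE): each fell in A-498 and lay within 0.07 of 0 in 786-O. FASN differed by -0.37 in the other direction. The coefficient of variation was also set to 0.2 for every gene, with the likelihood ratio test of edgeR in place of the quasi-likelihood test. None of the 34 then passed, and 281 of all genes did. For scale, the separate fit of A-498 alone estimated 3.83%. The count of genes more negative in 786-O was 7 under scaling by total counts and without control mimic replicate 3 of A-498, and 5 without control mimic replicate 1. INSIG1, SCAP, HMGCS1, SREBF1, SQLE and MVD had ratios of at least 0.5 in size below 0 in both lines. The share of all genes with that pattern was not counted. Over all genes the median size of the log2 ratio was 0.39 in 786-O and 0.30 in A-498. Under the alternatives the A-498 values of SREBF1 and MVD came as near 0 as -0.45 and -0.43.

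A further 37 genes of the pathway and its neighbours, among them the SREBP proteases, sterol transporters, liver X receptors and acyl-CoA enzymes, were divided more evenly. In A-498, 16 fell and 12 rose, beside 27.0% and 25.5% of all genes tested, with a median log2 fold change of 0.0065. Of the 35 measured in 786-O, 15 were below 0, beside 51.0% of all genes. In ACHN 8 of 35 fell and 7 rose, beside the 14.4% and 17.3% of all genes. Called in both replicated lines, in any direction, were 10 of the 35 tested in both (28.6%), near the 23.2% of all genes tested in both, and of these 10 the 6 with the largest smaller change are named. MBTPS1, the site-1 protease that makes the first cut in SREBPs, had log2 fold changes of -0.70 ± 0.039 (SE, edgeR adjusted p = 2.1e-09) in A-498 and 0.31 ± 0.043 (SE, edgeR adjusted p = 2.28e-05) in ACHN, but a ratio of 0.40 in 786-O. LPIN2, a phosphatidate phosphatase, and ACSL1, an acyl-CoA synthetase, also fell in A-498 (-0.72 and -0.35) and rose in ACHN (0.23 and 0.36). LBR, which like TM7SF2 is a C14 sterol reductase, rose in A-498 (0.54) and fell in ACHN (-0.23). SCARB1, the lipoprotein receptor SR-BI, and ERLIN1 fell in both, with -0.46 and -0.25 in A-498 and -0.36 and -0.20 in ACHN.

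Promoter sequence was searched as well. The genes were listed as SREBP-pathway genes, so the motif shares below are not independent of that choice. RefSeq windows of 300 bases (250 before to 50 after a start; GRCh38.p14) matched 30 of the 34 genes, with 43 windows; ACAT2, FDFT1, SQLE and FASN had no entry. Each window was searched on both strands for a sterol regulatory element (TCACNCCAC), an E-box (CACGTG) and a CCAAT box, the last being the motif of NF-Y, a known partner of SREBPs, and no 2 matches of different motifs overlapped. CCAAT was in 25 of the 43 windows (58.1%) against 34.6% of all 35116 windows. CACGTG was in 6 (14.0%) against 7.26%, and TCACNCCAC in 1 (2.33%), that of SREBF2, against 1.13%. Windows of 1 gene can overlap, so these shares are not of independent sequences. Below are the windows of the 5 genes that fell with the mimic in A-498 and rose with the inhibitor in ACHN (1 of 2 windows for INSIG2 and HMGCS1), and that of SREBF2. Capitals mark every match to a motif, a CCAAT on the other strand reading ATTGG.
INSIG1 (chr7:155297628-155297927, plus strand): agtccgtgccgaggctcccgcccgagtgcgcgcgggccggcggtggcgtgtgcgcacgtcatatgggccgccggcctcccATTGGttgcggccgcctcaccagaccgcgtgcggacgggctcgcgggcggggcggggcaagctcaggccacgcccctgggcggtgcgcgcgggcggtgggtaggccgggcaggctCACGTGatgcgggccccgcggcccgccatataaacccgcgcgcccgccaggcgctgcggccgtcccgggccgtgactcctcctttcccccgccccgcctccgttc
HMGCS1 (chr5:43313363-43313662, minus strand): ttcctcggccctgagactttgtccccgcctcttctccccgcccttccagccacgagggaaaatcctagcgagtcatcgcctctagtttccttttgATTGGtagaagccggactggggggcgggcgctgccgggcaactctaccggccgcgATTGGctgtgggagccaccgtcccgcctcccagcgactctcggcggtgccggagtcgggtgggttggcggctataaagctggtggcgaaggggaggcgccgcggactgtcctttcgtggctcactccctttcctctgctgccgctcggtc
MVK (chr12:109573544-109573843, plus strand): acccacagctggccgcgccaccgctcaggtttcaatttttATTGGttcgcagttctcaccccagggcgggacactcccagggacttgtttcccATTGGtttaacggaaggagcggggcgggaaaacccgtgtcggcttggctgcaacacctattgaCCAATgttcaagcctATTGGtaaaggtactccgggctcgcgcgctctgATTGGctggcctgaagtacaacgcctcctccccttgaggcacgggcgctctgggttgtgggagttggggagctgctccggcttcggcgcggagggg
INSIG2 (chr2:118088221-118088520, plus strand): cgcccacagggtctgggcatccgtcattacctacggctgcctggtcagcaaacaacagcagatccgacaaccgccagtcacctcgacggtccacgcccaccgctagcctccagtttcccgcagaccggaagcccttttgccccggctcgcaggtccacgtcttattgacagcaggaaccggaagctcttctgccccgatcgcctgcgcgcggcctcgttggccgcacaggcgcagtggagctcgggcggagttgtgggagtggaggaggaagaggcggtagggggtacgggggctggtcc
LSS (chr21:46228725-46229024, minus strand): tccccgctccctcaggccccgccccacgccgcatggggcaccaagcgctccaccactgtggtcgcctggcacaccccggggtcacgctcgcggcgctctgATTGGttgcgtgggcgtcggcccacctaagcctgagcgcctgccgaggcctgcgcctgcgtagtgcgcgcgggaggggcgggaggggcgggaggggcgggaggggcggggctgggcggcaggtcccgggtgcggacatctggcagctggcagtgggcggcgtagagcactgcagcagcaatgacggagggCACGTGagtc
SREBF2 (chr22:41832855-41833154, plus strand): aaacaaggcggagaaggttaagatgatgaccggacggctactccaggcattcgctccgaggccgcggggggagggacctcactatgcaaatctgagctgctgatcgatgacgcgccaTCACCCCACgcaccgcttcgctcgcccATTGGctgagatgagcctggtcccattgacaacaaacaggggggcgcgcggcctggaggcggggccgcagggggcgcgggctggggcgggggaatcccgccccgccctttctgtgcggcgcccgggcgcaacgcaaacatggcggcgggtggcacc
INSIG1 held CCAAT at position -170 and CACGTG at -55 from its start, HMGCS1 held 2 CCAAT matches in the window shown, the first at -155, and none in its other window, and MVK held 5 CCAAT matches. LSS held CCAAT at -150 and CACGTG at position 40, and neither window of INSIG2 held any of the 3 motifs. In SREBF2, TCACCCCAC lay at position -133 and CCAAT at -106. SCAP, SC5D and ABCA1 also held CACGTG. The absence of a match says only that these letters are not in the window.

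Levels of the 34 genes were compared within the control libraries per kilobase of exon (RPKM), where the line, the control oligonucleotide and the experiment cannot be told apart. SCD was the most abundant in 786-O (151 RPKM) and A-498 (509 ± 5.91 RPKM, SD, n = 2), and ACLY in ACHN (200.1 ± 7.07 RPKM, SD, n = 3). Next after SCD in A-498 came ACLY at 156 ± 3.86 RPKM. INSIG1 at 52.5 ± 2.41, FDPS at 52.2 ± 0.964, ABCA1 at 50.5 ± 1.43 and MSMO1 at 48.9 ± 3.41 RPKM followed, and 2 libraries do not settle the order among them. FASN ranked below SCD and ACLY in 786-O (49.0 RPKM) but was at 8.19 ± 0.760 RPKM in A-498 and 12.6 ± 0.225 RPKM in ACHN. TM7SF2 was lowest in all 3 lines, at 0.231, 0.533 ± 0.0998 and 1.65 ± 0.0891 RPKM.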

How the data were processed

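The 12 libraries were stranded and depleted of ribosomal RNA. The authors aligned reads to GRCh38 with HISAT2 and deposited raw counts per gene (Ensembl annotation) from HTSeq in its strict intersection mode, with no normalisation. The deposited differential expression tables, which hold the authors' own comparisons from DESeq2, were not used. Further A-498 libraries that the study set aside for doubtful labels were not analysed here. Reads assigned to no single gene were 37.2% to 48.0% of each library and were left out. The 34 genes, their roles and the other gene lists were chosen with earlier results of these data known; every one of the 34 is named, and values per library are given for the regulators and for genes called with a log2 fold change of at least 0.5 in size in a replicated line (or the 2 that changed most in a role).

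Counts were tested in R 4.3.3 with edgeR 4.0.16 (quasi-likelihood, TMM, filterByExpr, two-sided), by line, after a test on simulated data. 786-O was described by log2 ratios of CPM (prior count 2, at least 10 reads). Alternatives were library-size and median-ratio scaling, DESeq2 1.42.0, no filter, 1 fit over all libraries, and leaving out each library. No library was a copy of another: chi-square over its degrees of freedom lay between 3.87 and 12.2 for every pair within a group. The edgeR standard errors and confidence intervals include the spread between libraries of a group. The standard errors from read counts in 786-O cover counting error only. No molecular identifiers were described. Gene models and 3′ UTRs came from GENCODE v44, on the build of the counts but newer than their annotation; all 58 site windows read back from the GRCh38 sequence were identical. RPKM used the union of all exons of a gene. 1 gene of the renal epithelial marker list is not reported here.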

Additional observations from a re-analysis of the deposited data

Results flagged for a closer look

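The edgeR interaction of mimic and line (786-O, A-498) had an adjusted p under 0.05 for 14 of the 34 genes. With 1 library per group in 786-O, the fit assumes the spread of A-498 for both lines, so these values establish no difference between the lines. The estimated mimic effect was more negative in 786-O for FASN (-0.37 on the log2 scale), FADS1 (-0.29) and ACLY (-0.17). It was more positive in 786-O for LSS (0.97), EBP (0.69), ACAT2 (0.69), INSIG2 (0.55), FDPS (0.53), FDFT1 (0.46), MSMO1 (0.46), DHCR7 (0.34), SCD (0.32), INSIG1 (0.30) and ACACA (0.22). With the biological coefficient of variation set to 0.2 for every gene, the smallest adjusted p of the likelihood ratio test among these genes was 0.50 (LSS). No group held enough libraries for a test of a single library that stands apart.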

How the results depend on the processing

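In A-498, 25 of the 31 called genes kept their call under all 9 alternatives tried, as did 13 of the 16 in ACHN under 12, and no called gene changed direction; the 9 gene calls that were lost (MVK, PMVK, TM7SF2, NSDHL, SC5D and DHCR7 in A-498; MVK, FDPS and LSS in ACHN) stand beside their values above. Uncalled estimates changed sign for 2 genes in A-498 and 8 in ACHN, with sizes up to 0.07 and 0.099. The A-498 median was -0.22 under scaling by total counts and -0.32 with no filter, and ranged from -0.32 to -0.29 with 1 library left out. With 1 ACHN library left out, the count of genes that rose ranged from 3 to 6 and the median from -0.059 to -0.024. With the replicate block in ACHN, 11 genes fell and 6 rose (the median was -0.02), TM7SF2 being the gene gained (adjusted p = 0.049). Deviations of ACHN libraries with the same number had correlations of 0.042, -0.050 and -0.0047. Those with different numbers ran from -0.071 to 0.069. No shared deviation was seen, but 3 libraries per group cannot show whether the cultures were paired. A-498 groups share 1 number only, so no block could be fitted there. Genes more negative in 786-O than in A-498 numbered 7 under scaling by total counts, 0 with the coefficient of variation fixed at 0.2, and 2 to 7 with 1 library left out; those more positive numbered 0 with it fixed. The cause of these changes was not tested. Depth limits TM7SF2 and CYP51A1, which had the fewest reads.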
